A study of Mus musculus with 319 samples.

Results

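The cells described are thymic tuft cells that carried transcript of Gp2, and they were chosen by their own Gp2 reads. A member was a kept single-cell well with Gp2 at 100 CPM or more, where CPM is a gene's reads scaled to a common total of gene reads per library (counts per 1e6), ERCC spike-ins left out. Of 301 kept cells, 65 met that rule, which is 21.6% (95% exact Clopper-Pearson interval 17.1% to 26.7%). They were compared, within each set of wells, with the cells that had 0 Gp2 reads, of which there were 61 in the Aire-/- set, 47 in WT batch 2, 24 in June29 and 10 in June5. A further 94 cells had some Gp2 below the threshold; they are described beside the others, and entered the ranking of genes by likeness to Gp2 and the alternatives that moved the threshold or the compared class.

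Every well came from pooled mouse thymi, and each cell was sorted into a well by flow cytometry with the gate UVBlue-, CD11c-, CD45-, EPCAM+, MHCIIlo and Flare25+. Libraries were made with the Smart-seq2 method, which covers whole transcripts and counts reads, not molecules. The Aire-/- set (96 kept cells) came from naive mice of strain C57BL/6.Il25.Aire and genotype Flare25/Flare25 Aire-/-. Aire is the nuclear regulator that turns on tissue antigens in medullary thymic epithelium. The 3 wild-type sets came from naive C57BL/6.Il25 mice of genotype Flare25/Flare25 and are called WT batch 2 (89 kept cells), June29 (87) and June5 (29). June29 and June5 were made in batch 1, and the Aire-/- set was made in batch 2, as was WT batch 2. The deposited sample sheet splits both batch 2 sets further into groups numbered 1 and 2, called sheet group 1 and sheet group 2. All groups carry the Flare25 allele, a reporter for Il25, so every cell was selected as Il25-reporter positive and low in surface MHC class II. The mice were 6 weeks old, except that 1 well of the Aire-/- set is labelled 5 weeks, and sex is labelled as mixed. Sex-linked reads differed between the sets. At 5 or more reads, Xist without Y-linked genes was found in 14 of 15 Gp2-positive and 56 of 61 Gp2-zero cells of the Aire-/- set, and Y-linked genes without Xist in 0 of either. In WT batch 2, 9 Gp2-positive and 26 Gp2-zero cells had Xist alone, and 6 and 12 had Y-linked genes alone. In June29 no cell of either class had Xist alone, and 20 of 23 Gp2-positive and 18 of 24 Gp2-zero cells had Y-linked genes alone. In June5, 0 Gp2-positive and 3 Gp2-zero cells had Xist alone, and 5 of each class had Y-linked genes alone. The part of sex in the results was not tested. The labels name no animals, so each set is 1 sample, and p-values over the 4 sets measure only the spread between them.

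Tuft cells are chemosensory epithelial cells that depend on the transcription factor Pou2f3, use the taste transduction cascade (taste receptors, gustducin, phospholipase C and the channel Trpm5) and release the cytokine IL-25. In the thymus they lie in the medulla. Gp2 encodes glycoprotein 2, a membrane-anchored protein with a zona pellucida domain, known from pancreatic secretory granules and as a receptor for bacteria on the microfold (M) cells that cover gut lymphoid tissue.

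Gp2 lies on chromosome 7 from 119442537 to 119459285 on the minus strand of GRCm38, as a protein-coding gene. Its upstream sequence is shown because transcript of this gene alone defines the cells. The 250 bases before the RefSeq start (build GRCm38.p6, chr7:119459273-119459522, minus strand) are printed 5′ to 3′, with the match to TATAAA in capitals.
Gp2: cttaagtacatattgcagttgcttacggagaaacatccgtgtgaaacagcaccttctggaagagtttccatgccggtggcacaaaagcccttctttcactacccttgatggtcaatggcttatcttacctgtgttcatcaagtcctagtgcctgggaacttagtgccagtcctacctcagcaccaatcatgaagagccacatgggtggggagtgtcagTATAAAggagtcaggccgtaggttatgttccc
The match begins 32 bases before the start, and TATAAA, on either strand, occurs in 12.4% of 32851 such windows. GAGGAA, the core letters bound by Spi factors such as Spib, has no match on either strand of this window, against 23.3% of all windows.

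Most kept cells had Gp2 either at 100 CPM or more or under 10 CPM, while 16 of 301 had 10 to 100 CPM. Of these 16, 8 were in June29 and 5 in June5. In June29 there was no gap at the threshold, with cells at 92.5 and 101.98 CPM. In the Aire-/- set the 15 positive cells had 184.1 CPM at the lowest, 1413 at the median and 19007 at the highest. In WT batch 2 the 20 positive cells had 298, 2268 and 4633 CPM at these points. In June29 the 23 positive cells had 101.98, 1091 and 8346 CPM, and in June5 the 7 positive cells had 146.9, 628 and 78142 CPM. Just under the threshold, the highest cells had 12.7 CPM in the Aire-/- set, 81.7 in WT batch 2, 92.5 in June29 and 27.5 in June5. Of the 94 cells between 0 and the threshold, 78 had under 10 CPM, and their median was 1.94 CPM. These values chose the members and are given as a description.

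**Figure D1:**
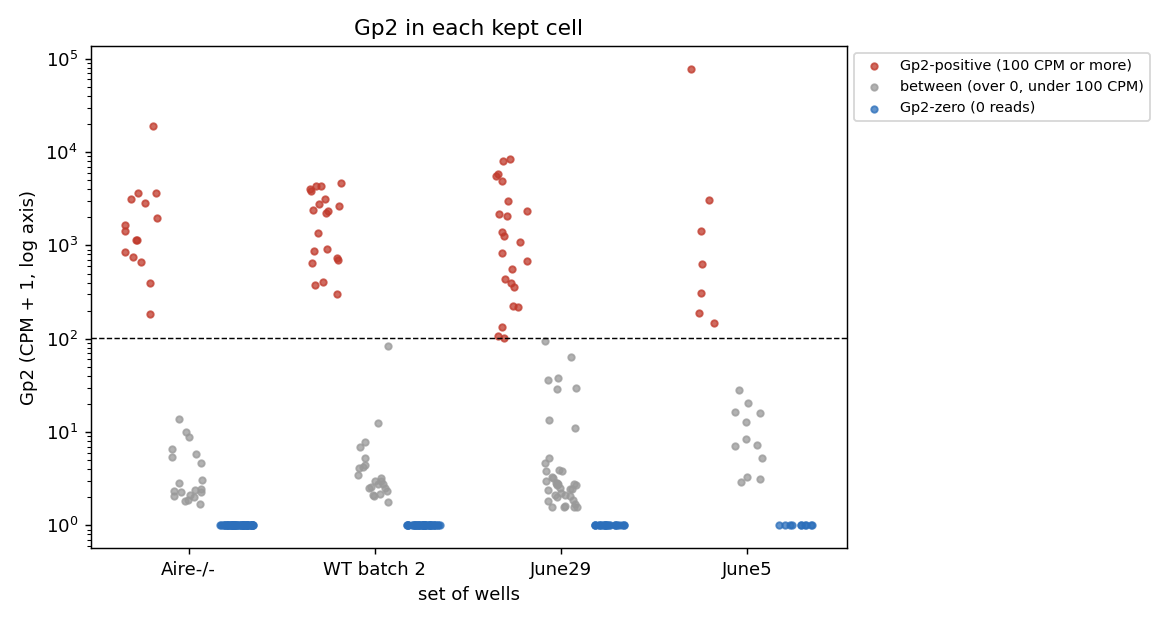
Gp2 in each kept cell, as CPM + 1 on a log axis, by set of wells. Red points are Gp2-positive cells, grey points cells with some Gp2 below the threshold and blue points cells with 0 Gp2 reads; the dashed line is the threshold of 100 CPM. Most grey points lie under 10 CPM, and 2 red points lie over 10000 CPM.

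Single cells carried much of the Gp2 in their sets. A single June5 cell at 78142 CPM held 90.7% of the Gp2 reads of that set's positive cells, and a single Aire-/- cell at 19007 CPM held 53.8%. The next highest cells had 3038 CPM in June5 and 3650 CPM in the Aire-/- set. In WT batch 2 and June29 the top cell held 16.6% and 22.3%.

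The share of positive cells was 15.6% (15 of 96, 95% exact interval 9.02% to 24.5%) in the Aire-/- set. It was 22.5% (20 of 89, 14.3% to 32.6%) in WT batch 2. It was 26.4% (23 of 87, 17.6% to 37.0%) in June29 and 24.1% (7 of 29, 10.3% to 43.5%) in June5. The 4 intervals overlap, and they cover counting error only, since reads and cells of a pool are not independent animals. Within sheet group 1 the share was 16.7% of 48 Aire-/- cells, against 25% of 48 WT batch 2 cells. Within sheet group 2 it was 14.6% of 48 Aire-/- cells, against 19.5% of 41 WT batch 2 cells. With 1 sample of each genotype in the batch there is no test of this difference.

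Wells that held no single cell were read for the same gene. A well of 50 sorted Aire-/- cells had Gp2 at 397 CPM, and a well of 50 WT cells had 1323 CPM. These genotypes follow the sample titles and the count table that holds each well, whereas each well's description names the table of the other genotype, and the design text gives another number of cells per control well, so the difference is not read as one of genotype. The no-cell well of batch 1 had 14 Gp2 reads among 9892 gene reads, which is 1415 CPM (95% exact Poisson interval 774 to 2375). Gp2 reads thus occurred in a well with no cell, and the part of such reads in the cells below the threshold was not tested. The positive cell with the fewest Gp2 reads had 23.

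The positive cells carried tuft cell transcripts throughout. Avil, an actin-bundling protein of the tuft cell, and the channel Trpm5 each had 5 or more reads in 65 of 65 Gp2-positive cells, against 98.6% of Gp2-zero cells for Avil and 97.9% for Trpm5. Pou2f3 was found in 76.9% of Gp2-positive and 76.8% of Gp2-zero cells. The summed CPM of 30 tuft core genes had medians of 41763, 30918, 27610 and 27369 in Gp2-positive cells of the Aire-/-, WT batch 2, June29 and June5 sets, against 34165, 29261, 22157 and 36858 in Gp2-zero cells. Wherever 4 values are listed, the sets come in that order. No positive cell had under 10000 CPM of these genes. This cutoff was set after the values were seen and lies just under the lowest positive cell, at 10449 CPM in June5. Under it lay 11 Gp2-zero cells (7.75%), 6 of them in June29, and 5 of 94 cells below the Gp2 threshold (5.32%). The comparison was therefore repeated without these 11 cells.

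The other genes proposed as markers of the cells did not set them apart. Unc5b, a receptor for netrins, had 0, 34.7, 125.3 and 24.2 CPM in Gp2-positive cells, against 8.51, 17.4, 36.6 and 17.01 CPM in Gp2-zero cells. Plch1, a phospholipase C of the eta type, had 4.07, 28.8, 38.4 and 0 CPM in Gp2-positive cells, against 0.243, 18.98, 65.6 and 27.3 CPM in Gp2-zero cells. Nmur1, a receptor for neuromedin U, had 18.6, 0.071, 29.8 and 0 CPM in Gp2-positive cells, against 5.85, 20.3, 0.504 and 45.8 CPM in Gp2-zero cells. Values on both sides of each other occurred for all 3 genes. At least 5 reads of Unc5b were found in 24.6% of Gp2-positive and 15.5% of Gp2-zero cells, of Plch1 in 13.8% and 9.15%, and of Nmur1 in 9.23% and 6.34%. The edgeR log2 folds were 0.23 ± 1.83 (SE) for Unc5b, -0.09 ± 2.40 for Plch1 and -2.42 ± 6.41 for Nmur1, with adjusted p = 0.999 for each. The cells are therefore called by their rule, Gp2-positive, and not by a state of 4 genes.

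Genes of the microfold cell, the gut cell best known for Gp2, gave a mixed picture. Of 22 such genes other than Gp2, 13 passed the filter on low counts. Of the 13, 2 were higher in all 4 sets (15.4%, against 3.62% of all genes tested) and 1 was lower (7.69%, against 11.1%). Summed over the 22 genes, the level was 4145, 4062, 2508 and 3132 CPM in Gp2-positive cells. In Gp2-zero cells it was 4403, 4161, 4574 and 4850 CPM, so the sum was lower in Gp2-positive cells in all 4 sets. The median of the mean log2 folds of the 13 was -0.21, against -0.32 over all genes tested. Of the 22, 6 had 5 or more reads in at least 50% of the cells of each class. Spib, a transcription factor of both microfold and tuft cells, had 5 or more reads in 93.8% of Gp2-positive and 88.03% of Gp2-zero cells. Sox8, another transcription factor needed for microfold maturation, stood at 21.7, 28.8, 98.4 and 47.8 CPM in Gp2-positive cells, against 1.79, 2.26, 14.4 and 21.4 CPM in Gp2-zero cells. Sox8 was found in 15 of 65 Gp2-positive cells (23.1%, 13.5% to 35.2%), against 8 Gp2-zero cells (5.63%, 2.46% to 10.8%). By set the shares were 13.3%, 10%, 39.1% and 28.6% of Gp2-positive cells, against 1.64%, 2.13%, 12.5% and 30% of Gp2-zero cells, so 9 of the 15 positive cells were in June29 and the share in June5 was not higher. Pglyrp1, a peptidoglycan-binding protein, was likewise higher in all 4 sets, at 83.8, 70.03, 53.4 and 24.7 CPM in Gp2-positive cells and 26.4, 24.4, 6.20 and 15.8 CPM in Gp2-zero cells. Clu, a secreted chaperone, was lower in all 4 sets, at 259, 348, 259 and 133.01 CPM in Gp2-positive cells and 426, 589, 1661 and 406 CPM in Gp2-zero cells. Their edgeR p-values before adjustment were 0.0145 for Sox8, 0.0441 for Pglyrp1 and 0.0172 for Clu, with adjusted p = 0.999. Some members of the list were found in few cells: Tnfaip2 had 5 or more reads in 2 of 65 Gp2-positive and 8 Gp2-zero cells (5.63%), and the chemokine Ccl9 in 0 of 65 Gp2-positive and 3 Gp2-zero cells (2.11%).

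Markers of other cell types were found in both classes, some lists in few cells and others in many. At least 2 genes of Ccl21a-expressing medullary epithelium were found in 61.5% of Gp2-positive and 60.6% of Gp2-zero cells, at least 2 ciliary genes in 29.2% and 22.5%, and at least 2 genes of cortical epithelium in 15.4% and 17.6%. At least 2 thymocyte genes were found in 1.54% of Gp2-positive and 4.23% of Gp2-zero cells, and at least 2 dendritic cell or macrophage genes in 1.54% and 4.93%. For at least 2 B cell genes the shares were 20% of Gp2-positive and 20.4% of Gp2-zero cells. Cd79a and Cd22 had 0 reads in all Gp2-positive cells. Cells with at least 2 endothelial genes were 0 of 65 Gp2-positive cells and 2.11% of Gp2-zero cells. With at least 2 fibroblast genes they were 3.08% of Gp2-positive and 0 of the Gp2-zero cells. For at least 2 genes of Aire-expressing epithelium the shares were 10.8% of Gp2-positive and 21.1% of Gp2-zero cells. Summed over the list, the last had 88.6 to 2354 CPM across the sets in Gp2-positive cells and 153.1 to 440 CPM in Gp2-zero cells. Aire itself had 75.03, 0, 38.9 and 0 CPM in Gp2-positive cells and 88.7, 23.7, 2.74 and 7.52 CPM in Gp2-zero cells, so reads of the Aire gene were present in the Aire-/- set; the labels do not say which part of the gene the allele removes. The part of other cell types in the results below was not tested beyond leaving out cells with 2 blood cell markers.

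Depth differed between the classes in June5. Median gene reads per cell were 684441, 613970, 1135240 and 374178 in Gp2-positive cells, against 598065, 550790, 1319230 and 1398190 in Gp2-zero cells. After each cell was thinned to 231697 reads, the median number of genes with a read was 4050, 3688, 3495 and 4470 in Gp2-positive cells, against 4058, 3766, 4023 and 4831 in Gp2-zero cells. It was lower in 4 of 4 sets (exact paired sign-flip test, two-sided p = 0.13, the smallest that 4 pairs allow). Spike-ins took 28.1%, 45.5%, 34.7% and 34.5% of reads in Gp2-positive cells, against 32.9%, 39.7%, 20.3% and 27.8% in Gp2-zero cells. The mitochondrial share had medians of 3.21%, 4.13%, 9.11% and 5.49% in Gp2-positive cells and 3.43%, 4.16%, 7.69% and 3.28% in Gp2-zero cells.

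Across all genes, no gene passed the test between Gp2-positive and Gp2-zero cells. Counts were summed over the cells of each class in each set, and the 8 sums were compared with edgeR's quasi-likelihood test with the set as a block. Of 10605 genes tested, 0 (0%) had an adjusted p under 0.05, and the smallest adjusted p was 0.999. Before adjustment 1.12% of the genes were higher and 2.02% (214 genes) were lower at p under 0.05. Equal weighting of cells with limma also gave 0 genes, while DESeq2 on the same sums gave 35 higher (0.33%) and 206 lower (1.94%). Counted by sign alone, CPM was higher in Gp2-positive cells in all 4 sets for 384 genes (3.62%) and lower in all 4 for 1179 genes (11.1%). Without the top cell of each gene these numbers were 77 and 2361. The excess of lower genes was largest among low genes: 13.1% of 3403 genes under 20 CPM were lower in all 4 sets, and 6.74% of 193 genes at 500 CPM or more. Gp2-positive sums rest on fewer cells, 15, 20, 23 and 7 in the Gp2-positive against 61, 47, 24 and 10 in the Gp2-zero class, and the part of that in the excess was not tested. The 16 genes picked for description, 8 in each direction, failed the adjusted edgeR test and were the smallest p among genes with the same sign in all 4 sets, so their shared sign is part of the choice. DESeq2 passed 14 of the 16, all but Tmem50b and Irf7.

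Aldh2 had the smallest p among the genes picked with higher values. It encodes the mitochondrial aldehyde dehydrogenase that clears acetaldehyde, and lies on chromosome 5 from 121566027 to 121593824. Aldh2 stood at 1635, 1262, 669 and 3104 CPM in Gp2-positive cells, against 942, 643, 293 and 1319 CPM in Gp2-zero cells, so the classes differed by about the same factor in each set while overlapping between sets. The mean log2 fold over the sets was 1.05 ± 0.20 (SD, n = 4). The edgeR quasi-likelihood test gave 1.19 ± 0.19 (SE), p = 0.00074 before and 0.999 after adjustment. The median cell had 1371, 963, 518 and 2007 CPM of Aldh2 in the Gp2-positive class and 683, 396, 188.1 and 742 CPM in the Gp2-zero class. In June5 a single cell held 81.4% of the Aldh2 reads of the positive class.

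Kalrn, a guanine nucleotide exchange factor on chromosome 16 (33969073 to 34573532), was present in more of the positive cells. It stood at 279, 147.4, 161.3 and 151.7 CPM in Gp2-positive cells, against 54.4, 51.8, 40.7 and 108.4 CPM in Gp2-zero cells. These summed values did not overlap between the classes. In June5, however, a single cell held 83.1% of the Kalrn reads of the positive class, so the sum there rests largely on that cell. At least 5 reads were found in 66.2% of Gp2-positive and 27.5% of Gp2-zero cells, and in 42.6% of the cells below the threshold. In June29 and June5 the cells below the threshold came close, at 57.5% and 66.7%, against 60.9% and 71.4% of Gp2-positive cells. In the Aire-/- set and WT batch 2 they were at 15% and 27.3%, against 60% and 75% of Gp2-positive cells. The mean log2 fold of Kalrn was 1.57 ± 0.80 (SD, n = 4).

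Dnah5, a heavy chain of the dynein arms that move cilia, lies on chromosome 15 (28203752 to 28472052). It stood at 471, 246, 59.2 and 68.6 CPM in Gp2-positive cells, against 86.2, 162.5, 9.92 and 22.98 CPM in Gp2-zero cells, and the classes overlap across sets. It had 5 or more reads in 40% of Gp2-positive and 24.6% of Gp2-zero cells. Its edgeR log2 fold of 1.95 was 0.54 in thinned cells, 0.59 at a Gp2 threshold of 500 CPM and 0.39 against all cells under 100 CPM. Of 9 ciliary genes on the list 3 passed the filter, and Dnah5 alone kept 1 sign. Tppp3, a tubulin-binding protein, stood at 380, 350, 328 and 142.2 CPM in Gp2-positive cells, against 180, 659, 133.1 and 52.1 CPM in Gp2-zero cells. Rsph1, a radial spoke protein, stood at 17.9, 22.3, 0.791 and 0.229 CPM in Gp2-positive cells, against 13.9, 84.5, 11.5 and 14.8 CPM in Gp2-zero cells. Summed over the list, the median cell had 454, 527, 196 and 475 CPM in the Gp2-positive class, against 116.2, 150.4, 39.4 and 123.8 CPM in the Gp2-zero class (exact paired sign-flip test, two-sided p = 0.13, the smallest possible). The list's summed level ranged over the sets from 211 to 876 CPM in Gp2-positive cells and from 91.999 to 1102 CPM in Gp2-zero cells, with Ccdc113, Tekt1 and Pifo at 0 in Gp2-positive cells. Single cells held 63.9% of the Dnah5 reads of the positive class in the Aire-/- set and 76.4% in June29.

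Resf1, a silencer of retroelements, stood at 100.0, 196, 754 and 353 CPM in Gp2-positive cells, against 52.7, 60.7, 134.5 and 146.2 CPM in Gp2-zero cells. Tent5a, a nucleotidyltransferase that extends poly(A) tails, stood at 100.6, 87.998, 175.05 and 457 CPM in Gp2-positive cells, against 14.3, 42.04, 61.8 and 158.4 CPM in Gp2-zero cells. For both genes the classes overlap across sets. In June29, 66.1% of the Resf1 reads of the positive class lay in a single cell.

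Acot7, a thioesterase that cleaves acyl-CoA, stood at 88.02, 206, 79.1 and 62.2 CPM in Gp2-positive cells, against 35.5, 69.4, 42.9 and 17.2 CPM in Gp2-zero cells. Irf7, a transcription factor of the interferon response, stood at 266, 373, 684 and 569 CPM in Gp2-positive cells, against 144.03, 225, 283 and 474 CPM in Gp2-zero cells. Tmem50b, a small membrane protein of the secretory pathway, stood at 482, 630, 502 and 1215 CPM in Gp2-positive cells, against 387, 394, 289 and 608 CPM in Gp2-zero cells. The mean log2 folds of these 3 genes were 1.38 ± 0.40, 0.78 ± 0.42 and 0.70 ± 0.29 (SD, n = 4), all with adjusted p = 0.999 by edgeR. The edgeR log2 fold of Acot7 was 1.55, and 0.80 against all cells under 100 CPM. In June5 a single cell held 92.3% of the Tmem50b reads of the positive class. The median cell had 387, 385, 94.8 and 57.8 CPM of Tmem50b in the Gp2-positive class. In the Gp2-zero class it had 190.7, 171.7, 16.4 and 338 CPM, so June5 differed in sign.

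**Figure D2:**
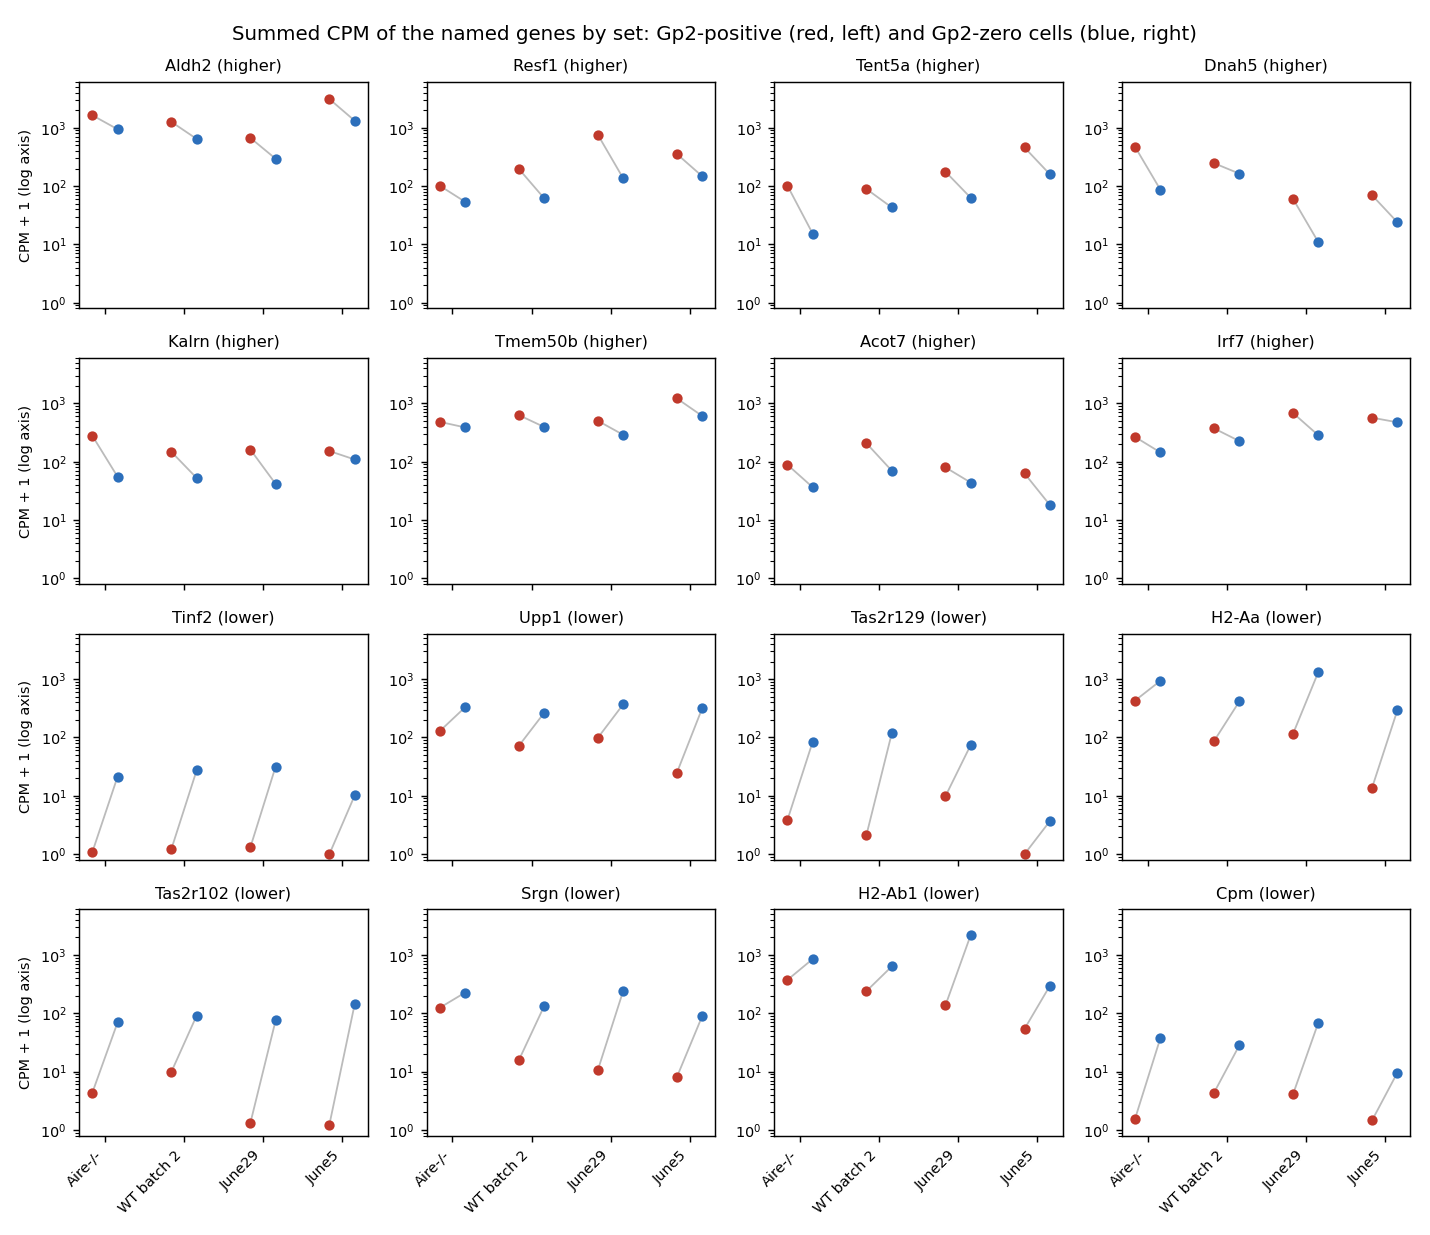
Summed CPM + 1 on a log axis for the 16 genes picked by the rule, 1 panel each, by set of wells; red points are Gp2-positive cells, blue points Gp2-zero cells, and a line joins the classes of a set. The upper 8 genes were picked with higher values and the lower 8 with lower values in all 4 sets; Tinf2 lies under 1 CPM in every positive sum.

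Among genes of MHC class II, the molecules that present peptides to CD4+ T cells, H2-Aa and H2-Ab1 had lower summed values in Gp2-positive cells. H2-Aa, the alpha chain of I-A on chromosome 17 (34282744 to 34287823), stood at 427, 85.8, 114.9 and 12.8 CPM in Gp2-positive cells, against 933, 414, 1326 and 292 CPM in Gp2-zero cells. H2-Ab1, its beta chain (chromosome 17, 34257689 to 34269419), stood at 371, 238, 135.7 and 52.8 CPM in Gp2-positive cells, against 849, 632, 2203 and 292 CPM in Gp2-zero cells. The mean log2 folds were -2.83 ± 1.44 for H2-Aa and -2.26 ± 1.29 for H2-Ab1 (SD, n = 4). The edgeR p was 0.00496 for H2-Aa and 0.00795 for H2-Ab1 before and 0.999 for both after adjustment. Without the 11 Gp2-zero cells low in tuft core genes, the edgeR log2 fold was -1.99 for H2-Aa and -1.56 for H2-Ab1, against -2.71 and -2.10 with them. Cells with at least 5 reads in each of 2 or more thymocyte, B cell or dendritic cell and macrophage markers, counted within 1 of these lists, numbered 2, 4, 7 and 2 among Gp2-positive and 12, 6, 10 and 5 among Gp2-zero cells in Aire-/-, WT batch 2, June29 and June5. Without them the edgeR log2 fold was -1.51 for H2-Aa and -1.11 for H2-Ab1, and the part of these cells in the difference was not tested further. Without the top cell of each gene it was -1.46 for H2-Ab1. Part of the H2-Aa difference in June29 lay in 1 Gp2-zero cell, which held 53.9% of that class's reads. The sort kept cells low in surface MHC class II, so both classes come from within that gate.

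The sequence before H2-Aa is shown because this gene had the smallest edgeR p of the MHC class II genes tested. The 250 bases before its RefSeq start (GRCm38.p6, chr17:34287824-34288073, minus strand) carry, in capitals, matches to TGACGTCA, the X2 box, and to ATTGG, the Y box core, elements known to be bound by the factors that recruit the class II activator.
H2-Aa: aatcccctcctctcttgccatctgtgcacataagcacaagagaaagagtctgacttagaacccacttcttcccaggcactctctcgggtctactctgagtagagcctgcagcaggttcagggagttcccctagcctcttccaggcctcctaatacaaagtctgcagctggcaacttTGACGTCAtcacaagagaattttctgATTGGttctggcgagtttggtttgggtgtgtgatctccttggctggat
The matches begin 74 and 48 bases before the start and do not overlap. On either strand, TGACGTCA occurs in 1.55% and ATTGG in 33.8% of the 32851 windows.

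Of 11 MHC class II genes 9 passed the filter, and 5 were lower in all 4 sets, which is 55.6% against 11.1% of all genes. The 5 were H2-Aa, H2-Ab1, H2-DMb1, H2-DMb2 and H2-Ob, the last 3 being chains of the peptide exchange factor DM and of DO. None passed the adjusted test, and 2 had p under 0.05 before adjustment. The median of the mean log2 folds was -1.75, against -0.32 over all genes tested. Cd74, the invariant chain, broke the pattern in June5, at 397, 390, 83.7 and 562 CPM in Gp2-positive cells, against 1345, 744, 1972 and 368 CPM in Gp2-zero cells. H2-Eb1, the beta chain of I-E, did so too, at 591, 156.5, 109.1 and 328 CPM in Gp2-positive cells and 716, 371, 913 and 316 CPM in Gp2-zero cells.

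Per cell, the values differed at the median and at the upper end. The median of the summed MHC class II CPM was 1430, 547, 187.3 and 549 in Gp2-positive cells, against 2457, 807, 983 and 558 in Gp2-zero cells, lower in 4 of 4 sets (exact paired sign-flip test, two-sided p = 0.13, the smallest possible). Cells below the threshold had medians of 1915, 1026, 332 and 357 CPM, so in June5 they were lower than the Gp2-positive cells. The highest Gp2-positive cell had 4956 CPM, in the Aire-/- set, and the highest Gp2-zero cell had 68082 CPM, in June29. At or above 5000 CPM, a cutoff set after the values were seen and just above the highest Gp2-positive cell, lay 19 Gp2-zero cells (13.4%), and 5 of these 19 were also among the 11 low in tuft core genes. The cells below the threshold gave 9 of 94 (9.57%). By set, the Gp2-zero cells past that cutoff were 11 of 61, 3 of 47, 4 of 24 and 1 of 10.

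Bitter taste receptors, the Tas2r family of G protein-coupled receptors, also had lower values. Tas2r102 (chromosome 6, 132762131 to 132763174) stood at 3.31, 8.81, 0.310 and 0.229 CPM in Gp2-positive cells, against 68.4, 89.7, 74.4 and 141.7 CPM in Gp2-zero cells. Tas2r129 (chromosome 6, 132951102 to 132952066) stood at 2.84, 1.14, 8.87 and 0 CPM in Gp2-positive cells, against 83.9, 116.3, 73.8 and 2.67 CPM in Gp2-zero cells. Both receptors were found in few cells at all, Tas2r102 in 3.08% of Gp2-positive and 16.9% of Gp2-zero cells and Tas2r129 in 7.69% and 24.6%. Tas2r genes resemble each other closely, so reads may have been split among them and single receptors are uncertain.

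Of 35 bitter receptor genes 23 passed the filter, and 7 were lower in all 4 sets (30.4%, against 11.1% of all genes tested), while 0 were higher in all 4 (against 3.62%). Without June5, where 3 sets need to share the sign, the number was 15 of 23 (65.2%, against 19.4% of all genes), and without June29 it was 12 (52.2%, against 19.3%). Against all cells under 100 CPM it was 11 (47.8%, against 12.6%). The median of the mean log2 folds was -1.83, and no receptor passed the adjusted test. Tas2r108, the most often detected of them in Gp2-positive cells, showed no common direction, at 36.4, 223, 201 and 121.6 CPM in Gp2-positive cells, against 155.9, 140.5, 95.8 and 160 CPM in Gp2-zero cells. In June5, Tas2r115 went the other way, at 403 CPM in Gp2-positive and 43.5 CPM in Gp2-zero cells.

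The number of bitter receptors per cell was read at the thinned depth, which left out shallower cells. The median number with a read was 2, 2, 2 and 2 in 14, 18, 23 and 4 Gp2-positive cells, against 4, 3, 2 and 5 in 53, 41, 24 and 10 Gp2-zero cells. Cells with 8 or more receptors, a cutoff set after the values were seen, were 3 of 59 among Gp2-positive cells (5.08%, 1.06% to 14.1%) and 41 among the Gp2-zero cells (32.03%, 24.1% to 40.9%). By set these were 0, 1, 1 and 1 Gp2-positive cells and 18, 15, 5 and 3 Gp2-zero cells. Without thinning, the median number was 3, 3.5, 5 and 3 in Gp2-positive cells and 5, 3, 4.5 and 7 in Gp2-zero cells, with no common direction.

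**Figure D3:**
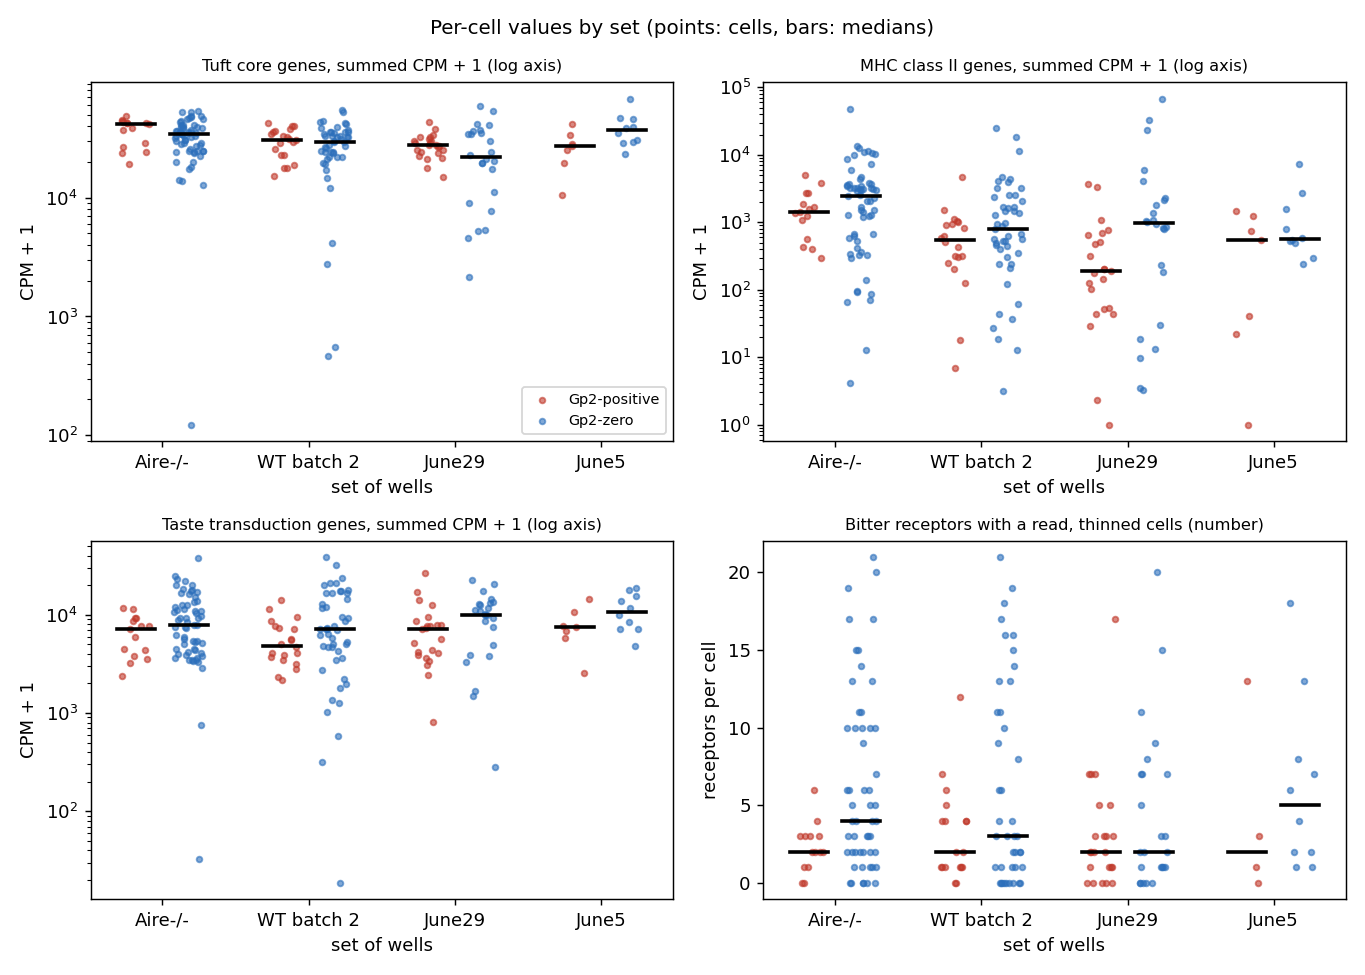
Per-cell values by set of wells: summed tuft core, MHC class II and taste transduction CPM + 1 on log axes, and the number of bitter receptors with a read in cells thinned to 1 depth. Points are cells, black bars medians, red Gp2-positive and blue Gp2-zero cells; no red point passes 5000 CPM of MHC class II, and 3 red points lie at 8 or more receptors.

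The cascade below the receptors had lower values in part. Of 17 taste transduction genes 13 passed the filter, and 5 were lower in all 4 sets (38.5%, against 11.1% of all genes tested), namely Gnb3, Plcb2, Tas1r3, Scn2a and Scn3a. Without June5 the number was 8 of 13 (61.5%, against 19.4% of all genes). Gnb3, the G protein beta subunit of the cascade, stood at 2289, 2377, 2496 and 4089 CPM in Gp2-positive cells, against 4810, 3075, 5362 and 4721 CPM in Gp2-zero cells. Plcb2, its phospholipase C, stood at 394, 426, 1054 and 523 CPM in Gp2-positive cells, against 703, 694, 1364 and 1436 CPM in Gp2-zero cells. Trpm5, the channel at its end, stood at 2230, 2171, 2544 and 1840 CPM in Gp2-positive cells, against 1980, 2064, 1945 and 3418 CPM in Gp2-zero cells, with no common direction. Gnat3, the alpha subunit gustducin, stood at 433, 882, 1076 and 3117 CPM in Gp2-positive cells, against 2007, 1959, 1134 and 893 CPM in Gp2-zero cells, so that June5 differed in sign. The edgeR p-values before adjustment were 0.0284 for Plcb2 and 0.0535 for Gnb3.

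Single genes outside these families were lower as well. Tinf2, a subunit of the shelterin complex that caps telomeres (chromosome 14, 55674689 to 55681820), had 1, 3, 9 and 0 reads in all Gp2-positive cells together, against 837, 765, 977 and 130 reads in Gp2-zero cells. At least 5 reads were found in 1.54% of Gp2-positive, 15.5% of Gp2-zero and 12.8% of the cells below the threshold. In June5 this was 0 of 7 Gp2-positive cells (exact interval up to 40.96%) and 2 of 10 Gp2-zero cells, so the class with 0 reads rests on few cells. Upp1, a uridine phosphorylase (chromosome 11, 9118103 to 9136170), stood at 127.9, 71.1, 98.1 and 23.997 CPM in Gp2-positive cells, against 329, 264, 370 and 317 CPM in Gp2-zero cells. The classes of Upp1 did not overlap across sets, and its mean log2 fold was -2.20 ± 1.01 (SD, n = 4). Its edgeR log2 fold was -2.05, and -1.19 without cells that carried blood cell markers.

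Srgn, serglycin, the core protein of secretory granule proteoglycans, stood at 123.2, 14.7, 9.67 and 7.08 CPM in Gp2-positive cells, against 225, 131.7, 241 and 88.4 CPM in Gp2-zero cells. Per cell, the Aire-/- set went the other way. There, 60% of Gp2-positive and 54.1% of Gp2-zero cells had 5 or more reads of Srgn, and the median cell had 73.2 against 30.9 CPM. In the other sets the share was lower in Gp2-positive cells. Carboxypeptidase M, whose gene symbol is Cpm, stood at 0.538, 3.34, 3.10 and 0.457 on the same scale in Gp2-positive cells, against 35.97, 27.1, 68.1 and 8.57 in Gp2-zero cells. At least 5 reads of Cpm were found in 6.15% of Gp2-positive and 16.9% of Gp2-zero cells. By edgeR, p was 0.00706 for Srgn and 0.00843 for Cpm before and 0.999 for both after adjustment.

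Genes shared by tuft cells in general showed no common direction. Of 30 tuft core genes, 0 were higher and 3 lower in all 4 sets (10.0%, close to the 11.1% of all genes tested), with a median of the mean log2 folds of -0.04. The kinase Dclk1, a common tuft marker, stood at 1197, 1167, 2029 and 682 CPM in Gp2-positive cells, against 615, 784, 1060 and 1381 CPM in Gp2-zero cells. June5 differed in sign from the other 3 sets. Dclk1 had 5 or more reads in 96.9% of Gp2-positive and 78.2% of Gp2-zero cells.

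Among 15 tuft transcription factors, Sox4 alone was higher in all 4 sets (6.67%, against 3.62% of all genes tested). Tcf7l2 alone was lower in all 4 (6.67%, against 11.1%), and neither had an adjusted p below 0.999 by edgeR. Of 15 genes of the microvillus and cytoskeleton, 2 were higher (13.3%, against 3.62%) and 1 lower (6.67%, against 11.1%) in all 4 sets. Cdhr2, a protocadherin that links microvilli and 1 of the 2, stood at 658, 473, 138.04 and 531 CPM in Gp2-positive cells, against 180.9, 238, 125.6 and 273 CPM in Gp2-zero cells (edgeR p = 0.0148 before and 0.999 after adjustment). H2-D1, a class I heavy chain, stood at 12783, 9055, 4565 and 4796 CPM in Gp2-positive cells, against 8790, 7453, 4497 and 8882 CPM in Gp2-zero cells, and of 13 MHC class I genes 2 (15.4%, against 3.62% of all genes tested) were higher and 0 (against 11.1%) lower in all 4 sets. Adh1, an alcohol dehydrogenase, stood at 626, 1035, 561 and 3.43 CPM in Gp2-positive cells, against 438, 90.1, 47.8 and 16.7 CPM in Gp2-zero cells, again with June5 apart.

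**Figure D4:**
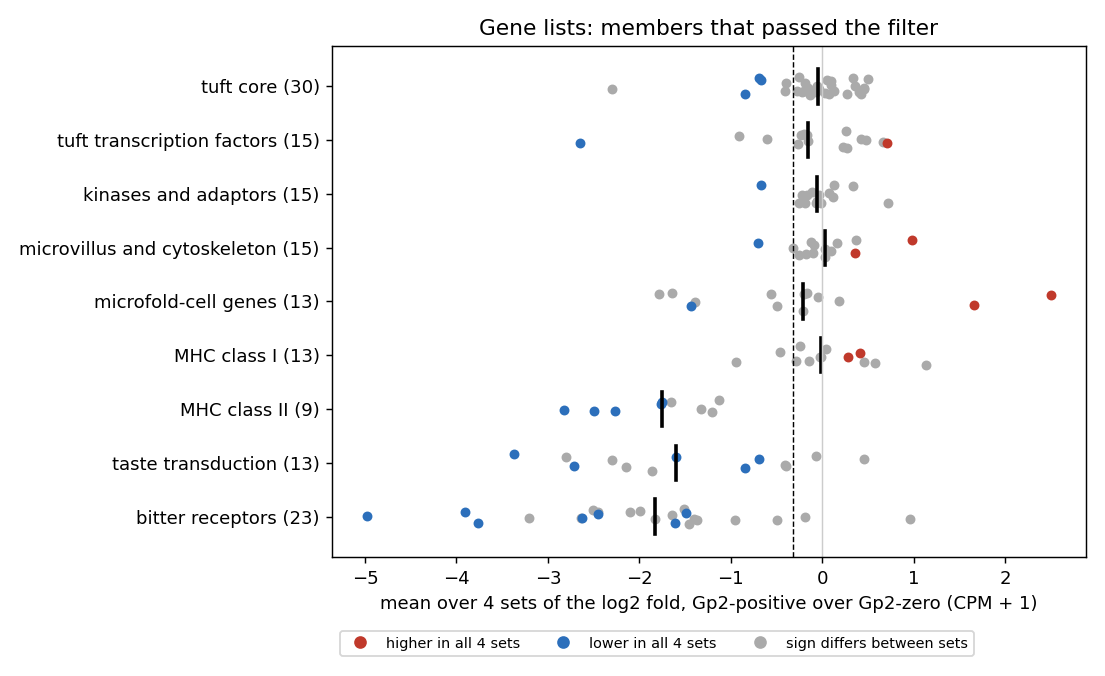
Mean over 4 sets of the log2 fold of Gp2-positive over Gp2-zero cells, on the CPM + 1 scale, for each member that passed the filter (number in parentheses); red and blue points have the same sign in all 4 sets. Black bars are list medians and the dashed line is the median of all genes tested, -0.32; MHC class II, taste transduction and bitter receptors lie to its left.

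Transcripts that mark what a tuft cell secretes were found in both classes. Il25 had 5 or more reads in 38 of 65 Gp2-positive cells (58.5%, 45.6% to 70.6%), against 71 Gp2-zero cells (50%, 41.5% to 58.5%). By set the shares were 86.7%, 70%, 30.4% and 57.1% of Gp2-positive cells, against 62.3%, 38.3%, 33.3% and 70% of Gp2-zero cells, higher in both batch 2 sets and lower in both batch 1 sets. Il10 was found in 31 of 65 (47.7%, 35.1% to 60.5%), against 76 Gp2-zero cells (53.5%, 44.97% to 61.9%). By set the Il10 shares were 60%, 55%, 43.5% and 14.3% of Gp2-positive cells, against 62.3%, 42.6%, 54.2% and 50% of Gp2-zero cells. The pooled intervals cover counting error only and mix sets that differ in direction, so they do not compare the classes.

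The genes most like Gp2 were ranked by Spearman's rank correlation with Gp2 CPM over all kept cells of a set, averaged over the 4 sets. The 10 highest were Ptpn18 (0.310), Aldh2 (0.287), Wfdc17 (0.257), Ano7 (0.254), Entpd3 (0.248), Gsn (0.241), Tmem131 (0.238), Fetub (0.232), Kalrn (0.229) and Svet1 (0.225). Ptpn18 is a protein tyrosine phosphatase, Entpd3 a cell-surface enzyme that cleaves nucleotides, and Gsn the actin-severing protein gelsolin. Within sets, the rank correlation of Aldh2 was 0.290, 0.314, 0.243 and 0.302, while that of Ptpn18 was 0.156, 0.353, 0.146 and 0.582. These correlations are weak, cells of a set share libraries and depth, and they are given as a description. Among Gp2-positive cells alone, the level of Gp2 had a rank correlation with Aldh2 of 0.289, -0.003, 0.202 and 0.393.

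Positive cells of the Aire-/- set and of WT batch 2 can be set side by side but not tested, since each genotype is 1 sample and the sets also differ in sex-linked reads. Gp2 in the summed positive cells was 3133 CPM (95% exact Poisson interval 3102 to 3163) in the Aire-/- set, against 2159 CPM (2135 to 2184) in WT batch 2. In sheet group 1 it was 1970 CPM in the Aire-/- set and 1917 CPM in WT batch 2. In sheet group 2, which holds the Aire-/- cell at 19007 CPM, it was 4090 CPM in the Aire-/- set and 2551 CPM in WT batch 2. H2-Aa was 427 CPM (416 to 439) in Aire-/- cells, against 85.8 CPM (81.03 to 90.8) in WT batch 2 cells, with 258 and 136.3 CPM in sheet group 1 and 566 and 4.27 CPM in sheet group 2. Srgn was 123.2 CPM (117.3 to 129.4) in Aire-/- cells, against 14.7 CPM (12.8 to 16.8) in WT batch 2 cells. Acot7 was 88.02 CPM (82.995 to 93.3) in Aire-/- cells, against 206 CPM (199 to 214) in WT batch 2 cells. Dclk1 was close, at 1197 CPM (1178 to 1215) in Aire-/- cells and 1167 CPM (1150 to 1185) in WT batch 2 cells. These intervals cover counting error only, not the spread between cells or animals.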

How the data were processed

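Single sorted thymic cells were profiled by Smart-seq2 with ERCC spike-ins. Per the submitters' processing notes, STAR, featureCounts 1.5.3, Subread, R 3.4.0 and GRCm38 were used, with parameters and annotation not given in the sources used here. The authors deposited raw read counts per gene and well, which were the values analysed. The deposited score table, whose scale is not stated, served only as a list of wells for an alternative, and the deposited sample sheet gave the other labels (group numbers 1 and 2). Of 314 wells with 1 cell, 301 had at least 10000 gene reads, 1000 genes and at most 20% mitochondrial reads; kept cells had 45266 to 2927690 gene reads. Entries without a gene name stayed in the totals and in the test. They were left out of the choice of named genes. So were symbols of the form Gm followed by digits, Rik clones, pseudogenes and mitochondrially encoded genes.

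Counts were summed over Gp2-positive and Gp2-zero cells within each of 4 sets, so that both classes of a set share its pool of thymi and the set is a block by source. Genes needed a mean of 5 CPM over the 8 sums and 5 reads in 5% of the cells compared. edgeR 4.0.16 (robust quasi-likelihood test, TMM, 3 residual degrees of freedom, R 4.3.3) gave p-values with Benjamini-Hochberg adjustment over 10605 genes; DESeq2 1.42.0 and limma 3.58.1 were alternatives. The fit was tested on simulated data, where recovery of changes was required only at a chosen spread. At the spread of these data it was not required, so an absence of passing genes is not read as equal levels. Fold changes per set were log2(CPM + 1) differences, which understate low genes. Shares have 95% exact Clopper-Pearson intervals and sums exact Poisson intervals, which cover counting error only, since PCR reads are not independent molecules. Python 3.11.15 with scipy 1.17.1 ran the exact tests.

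Members and gene lists were chosen with earlier results of these data known. Named genes were Gp2, Unc5b, Plch1 and Nmur1, and, since fewer than 8 genes passed in either direction, the 8 with the smallest p in each direction with 1 sign in all 4 sets, at least 20 CPM in the higher class and shares of cells at least 10 points apart. From each list up to 4 members of highest mean CPM were to be named; further members named in the text were chosen after their values were seen. Promoter sequences are from RefSeq (GRCm38.p6).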

Additional observations from a re-analysis of the deposited data

Results flagged for a closer look

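Among the Gp2-positive sums of the 4 sets, Kalrn stood apart in the Aire-/- set at 279.2 CPM, and Srgn stood apart there too at 123.2 CPM. The median summed taste transduction CPM of Gp2-positive cells stood apart in WT batch 2 at 4853 CPM, the lowest of the 4 sets. Each had a gap to the nearest set that was over 0.829 of the whole range, and 55 groups of 4 values were checked. Chance flags about 1 in 20 such groups, and these were 3 of 55. The log2 fold of Unc5b on the CPM + 1 scale between Gp2-positive and Gp2-zero cells was -3.25 in the Aire-/- set, against 0.96 in WT batch 2, 1.75 in June29 and 0.49 in June5. Unc5b had 0 reads in the 15 Aire-/- positive cells, which allows a share of cells of up to 21.8% (95% exact interval), and 5 or more reads in 8 of the 61 Gp2-zero cells there (13.1%). The difference between the genotypes was not tested.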

How the results depend on the processing

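The count of genes past the adjusted threshold was 0 in both directions by edgeR under each alternative run and by limma, and DESeq2 gave 35 higher and 206 lower. Without the block for the set, which pairs the classes by their pool, edgeR also gave 0 in both directions. For the 16 genes named by p, all 288 alternative folds kept their direction, and 14, all by DESeq2, passed the threshold. These genes were chosen for 1 sign in all 4 sets, and the alternatives mostly reuse the same cells. Kept directions thus follow largely from the choice of these genes. Their log2 folds ranged over the alternatives from -4.40 to -2.04 for Srgn, -8.56 to -3.91 for Tas2r102, -6.61 to -2.84 for Tas2r129, -9.47 to -4.19 for Tinf2 and -5.14 to -2.93 for Cpm. The 3 proposed markers did not keep theirs in 12 of 54 folds. Unc5b, at 0.23, had log2 folds between -0.66 and -0.02 without WT batch 2 (-0.31), June29 or June5, -1.31 at a Gp2 threshold of 500 CPM and -0.43 against all cells under 100 CPM. Plch1, at -0.09, had 0.34 without June29, 1.24 without June5, 0.23 in thinned cells, 0.20 at 500 CPM and 0.03 in wells of the score table, against -1.52 without the Aire-/- set, -2.08 without the top cell of each gene and -2.18 without the 2 cells over 10000 CPM. Nmur1, at -2.42, had 1.53 without WT batch 2 and 1.54 without June5, against -6.51 without the Aire-/- set. At 500 CPM the share of positive cells was 17.2% in June29 and 16.3% in all sets. Genes higher in all sets numbered 77 and lower 2361 without the top cell of each gene, and 768 to 1068 higher and 1952 to 2057 lower with 1 set left out, where 3 sets need to share a sign in place of 4. These sign counts, and the runs without the 2 cells over 10000 CPM of Gp2 or without cells low in tuft core genes, were added after the data were seen. The cause of these shifts was not tested. The fit had 3 residual degrees of freedom, and the positive class of June5, also the shallowest, had 7 cells.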
